A study of Oryctolagus cuniculus with 6 samples.

Results

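The miRNAs described here are grouped as stromal and smooth muscle miRNAs: miR-143-3p, both arms of miR-145, both arms of miR-199a, miR-199b-5p, miR-214-3p and miR-21-5p. Of these, miR-21-5p is not particular to stroma. All were taken by name, without the species prefix, from a table of 577 rabbit miRNAs. Of the 8 names, 7 had a row, and miR-199b-5p was not analysed here. The table comes from small RNA sequencing of extracellular vesicles, small membrane particles shed by cells, isolated from the seminal plasma of rabbit bucks. The bucks were a cross of California with New Zealand white rabbits, 10 to 12 months old. Sub-fertile vesicles came from 3 males of low semen quality and Fertile vesicles from 3 males of high semen quality, chosen among 14 after 8 ejaculates each over 1 month. The names of the groups thus rest on semen quality, and no fertility record was used here. Neither group carried a treatment or allele.

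MicroRNAs are short RNAs, nearly equal in length, that guide the silencing of messenger RNAs. Most hairpins can give a 5p and a 3p strand, of which usually one is kept. miR-143 and miR-145 are cut from one transcript in smooth muscle and favour its contractile state. miR-199a and miR-214 are cut from one transcript of mesenchymal cells in mouse and human, the antisense strand of DNM3. miR-21, encoded beside VMP1, is abundant in fibroblasts and also in many epithelia and leukocytes. miR-200c-3p keeps epithelial cells in their state by silencing ZEB1 and ZEB2, and it served as the epithelial yardstick. In RefSeq's rabbit genes (assembly mOryCun1.1, not the build named for these data and used for gene order alone), MIR145 followed MIR143 and MIR214 followed MIR199A-2 inside DNM3. A further miR-199a hairpin, MIR199A-1, lay inside DNM2, and counts of either miR-199a arm cannot be assigned to one hairpin.

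The deposited values are counts scaled by library, named CPM by the authors, and whole counts could be recovered from them. Recovered totals were 129387 to 636929 counts in the 3 Sub-fertile libraries and 453675 to 772619 in the 3 Fertile ones. A single count was worth 1.74 to 6.24 units of scaled CPM in Sub-fertile and 1.33 to 2.32 in Fertile libraries. Sub-fertile replicate 1 was the shallowest library and agreed least with the others of its group by chi-square. A count of 0 allows up to 3 counts, which is 18.7 units in that library. Such limits, and the 95% exact intervals on counts below, cover counting error only.

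Only miR-21-5p was abundant among the stromal miRNAs. It stood at 30973, 27321 and 28367 scaled CPM in Sub-fertile replicates 1, 2 and 3, against 22154, 30833 and 29983 in Fertile replicates 1, 2 and 3. The lowest library was Fertile replicate 1, and the groups overlapped. With 73353 counts in all, miR-21-5p ranked 15 in the table by mean level. Its share of all counts was 3.05% ± 0.684 for Sub-fertile and 2.65% ± 0.438 for Fertile libraries (SD, n = 3 each). Its level had a coefficient of variation of 11.7% over the 6 libraries, where that of miR-200c-3p was 15.2%. In vesicles, as in bulk tissue, fewer source cells and less RNA released per cell cannot be told apart.

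The next stromal miRNA, miR-199a-3p, lay far below. It reached 181, 172 and 103 scaled CPM in Sub-fertile replicates 1 to 3, against 149, 93.4 and 162 in Fertile replicates 1 to 3. These values rested on 29, 42 and 59 counts in the Sub-fertile libraries and on 112, 48 and 70 in the Fertile ones. The groups overlapped, with the lowest values in Sub-fertile replicate 3 and Fertile replicate 2. It ranked 118 in the table.

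The opposite strand, miR-199a-5p, was near the limit of detection. Its counts were 1, 1 and 6 in Sub-fertile replicates 1 to 3, against 2, 5 and 1 in Fertile replicates 1 to 3. That corresponds to 4.08 to 10.4 scaled CPM in Sub-fertile and 2.32 to 9.73 in Fertile libraries, ranges that overlapped. The ratio of Sub-fertile to Fertile levels from summed counts was 1.73 (95% counting interval 0.566 to 5.29), so a difference was not detectable at this depth. Counts named miR-199a-3p exceeded those named miR-199a-5p 16.2-fold in Sub-fertile (8.01 to 38.4) and 28.8-fold in Fertile libraries (14.3 to 67.4). These ratios are of summed counts, with counting intervals. Whether miR-199b adds to the counts of miR-199a-3p was not tested. Single libraries moved these ratios: without Sub-fertile replicate 3 the Sub-fertile ratio was 35.5, and without Fertile replicate 2 the Fertile ratio was 60.7. The intervals overlap, and with fewer than 10 counts of miR-199a-5p in each library the arm ratio was not tested.

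miR-143-3p, the main strand of its hairpin, was the 1 of these 7 miRNAs whose groups did not overlap. Of the 7, 3 were at 0 in every library and 3 were among the 234 miRNAs compared below. Groups did not overlap for 25.6% of those 234, with Sub-fertile higher for 9.40% and lower for 16.2%. miR-143-3p entered the 234 through its Sub-fertile libraries alone, so its lack of overlap was partly selected. Its level was 56.2, 12.3 and 13.9 scaled CPM in Sub-fertile replicates 1 to 3, against 1.33, 1.95 and 0 in Fertile replicates 1 to 3. All 3 Sub-fertile libraries were above all 3 Fertile libraries, and Sub-fertile replicate 1 was highest. Behind these values stood 9, 3 and 8 counts in the Sub-fertile group and 1, 1 and 0 in the Fertile group, 22 counts in all. From the summed counts, the Sub-fertile level was 17.3 times the Fertile level (95% counting interval 4.20 to 153). Without Sub-fertile replicate 1 the ratio was 11.4 (2.48 to 106).

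The partners of these miRNAs in their transcripts were at 0, as were 209 of the 577 miRNAs of the table (36.2%). miR-145-5p, which acts with miR-143 in smooth muscle, had 0 counts in all 6 libraries, and so had miR-145-3p and miR-214-3p. The opposite strands miR-143-5p and miR-214-5p were also at 0 in every library. Over the 1008394 counts of the Sub-fertile and the 1762320 of the Fertile libraries, a count of 0 allows up to 3.06 scaled CPM over the Sub-fertile and 1.77 over the Fertile libraries. Beside these zeros, miR-143-3p had 20 counts over the Sub-fertile group and 2 over the Fertile group. miR-199a-3p had 130 and 230 counts over the Sub-fertile and the Fertile group, which cannot be assigned to the hairpin beside MIR214. No ratio of miR-145-5p to miR-143-3p, of miR-145-5p to miR-145-3p or of miR-214-3p to miR-199a-3p could be tested.

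In order of level, miR-21-5p came first and miR-199a-3p second, with no overlap between their 6 libraries. miR-143-3p and miR-199a-5p followed and overlapped each other over the 6 libraries. The 3 at 0 came last. The plot of levels by library shows the gap between miR-21-5p and the others.

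**Figure D1:**
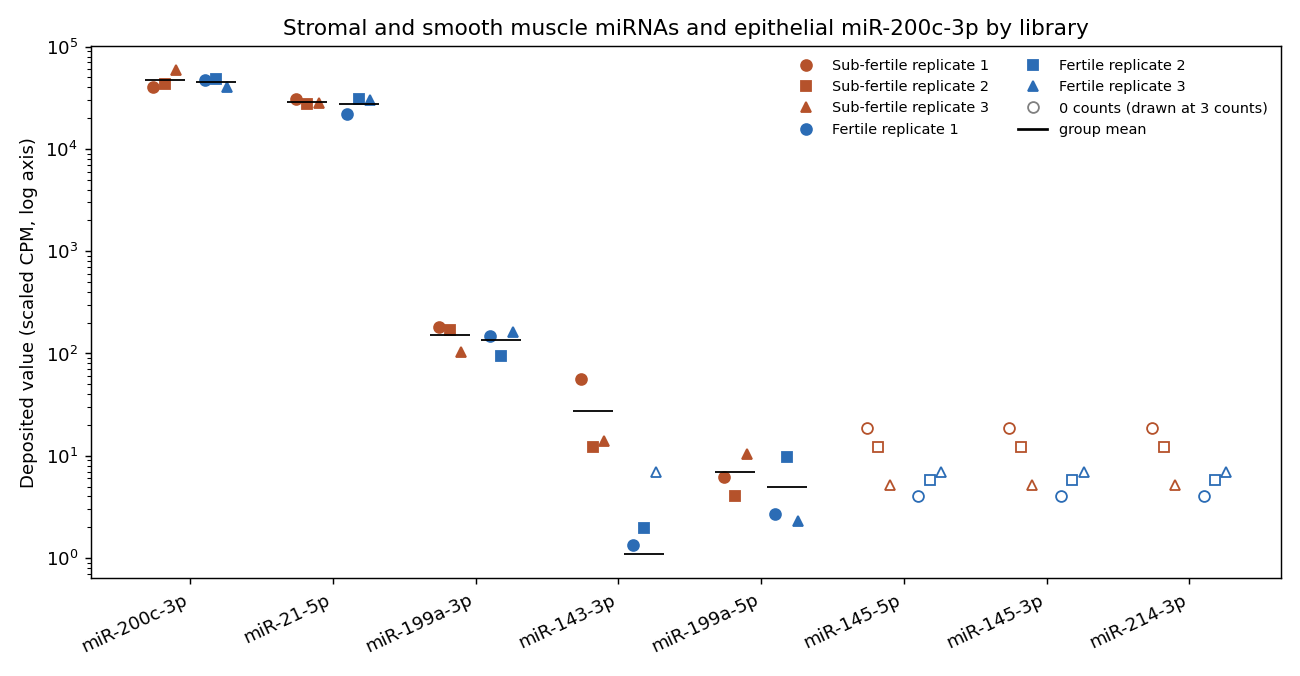
Deposited value in scaled CPM on a log axis for miR-200c-3p and the 7 stromal and smooth muscle miRNAs, Sub-fertile libraries left of Fertile ones. Filled symbols are single libraries, black lines group means, and open symbols libraries with 0 counts drawn at the limit of 3 counts. miR-21-5p lies between 22154 and 30973 in all libraries, while miR-199a-3p stays at or below 181 and both arms of miR-145 and miR-214-3p are at 0.

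Set against epithelial miR-200c-3p in the same library, where the scaling cancels, the summed level of these miRNAs was again that of miR-21-5p, which is not particular to stroma. miR-200c-3p itself stood at 40745, 42802 and 58948 scaled CPM in Sub-fertile replicates 1 to 3, against 46828, 47989 and 39978 in Fertile replicates 1 to 3. miR-21-5p amounted to 76.0%, 63.8% and 48.1% of it in the Sub-fertile libraries, against 47.3%, 64.3% and 75.0% in the Fertile ones. Both groups thus covered nearly the same range, with means of 62.7% ± 14.0 in Sub-fertile and 62.2% ± 14.0 in Fertile libraries (SD, n = 3 each). On the log2 scale the ratio of miR-21-5p to miR-200c-3p differed by 0.012 (Sub-fertile minus Fertile; exact permutation p = 0.8, two-sided, Benjamini-Hochberg adjusted p = 0.9 over 2 ratios). With 3 libraries against 3 this exact permutation test cannot go below p = 0.1.

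The other stromal miRNAs were traces beside miR-200c-3p. miR-199a-3p amounted to 0.444%, 0.401% and 0.174% of it in Sub-fertile replicates 1 to 3, against 0.319%, 0.195% and 0.406% in Fertile replicates 1 to 3. Its log2 ratio differed by 0.10 (exact permutation p = 0.9, two-sided, adjusted p = 0.9), and the groups overlapped. Without Sub-fertile replicate 1 the log2 differences were -0.14 for miR-21-5p and -0.15 for miR-199a-3p, so their signs rested on single libraries. For miR-143-3p the shares were 0.138%, 0.0286% and 0.0236% in Sub-fertile libraries, against 0.00285%, 0.00406% and 0% in Fertile ones. Even the highest of these had an upper bound of 0.262% (exact interval).

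Summed over the stromal miRNAs, the level was 76.6%, 64.3% and 48.3% of miR-200c-3p in Sub-fertile replicates 1 to 3, against 47.6%, 64.5% and 75.4% in Fertile replicates 1 to 3. miR-21-5p made up 99.2% to 99.7% of that sum in each library. Without miR-21-5p the sum was 0.598%, 0.439% and 0.215% of miR-200c-3p in Sub-fertile libraries, against 0.327%, 0.219% and 0.411% in Fertile ones. Both sums overlapped between the groups. Over all 6 libraries, miR-200c-3p had 127922 counts, where miR-145-5p had 0, which allows up to 3.

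**Figure D2:**
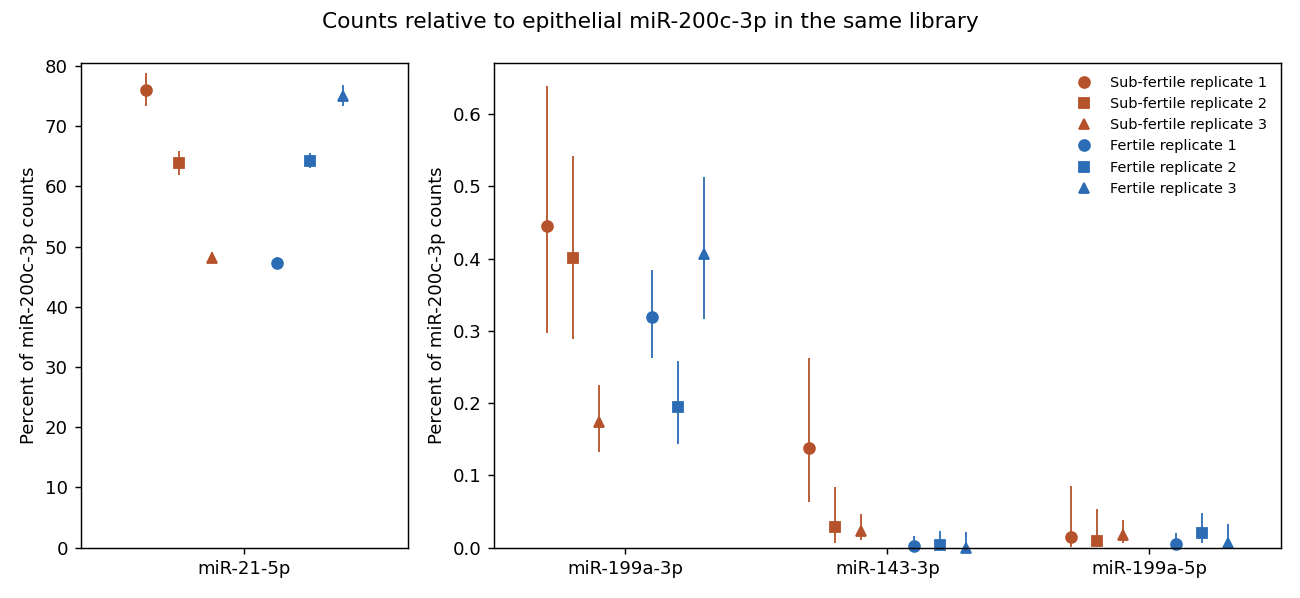
Counts of miR-21-5p (left) and of miR-199a-3p, miR-143-3p and miR-199a-5p (right, on a finer axis) as a percent of miR-200c-3p counts of the same library. Points are libraries, Sub-fertile left of Fertile, and bars are 95% exact counting intervals. miR-21-5p spans 48.1% to 76.0% in Sub-fertile and 47.3% to 75.0% in Fertile libraries, while the others stay below 0.5%.

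The comparison of the groups was made with limma on log2(value + 1), adjusted over the 234 miRNAs with at least 10 scaled CPM in at least 3 of the 6 libraries. Of the 7 stromal miRNAs, 3 passed this filter and 0 had an adjusted p under 0.05, where 3.42% of all tested miRNAs did. By edgeR's quasi-likelihood test on the recovered counts 0 passed as well, again against 3.42% of all tested miRNAs. By DESeq2 1 passed, against 6.84% of all, and 1 had an unadjusted limma p under 0.05, against 19.2% of all. In both cases it was miR-143-3p, which entered the tested set through its Sub-fertile libraries alone, so neither count is support for a difference. The median log2 fold change (Sub-fertile over Fertile) was 0.16 over the 3 that passed the filter and -0.10 over all tested miRNAs. For the same reason this median describes a chosen set.

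For miR-21-5p, means were 28887 ± 1880 scaled CPM in Sub-fertile and 27656 ± 4784 in Fertile vesicles (SD, n = 3 each). The log2 fold change was 0.076 (SE 0.18, limma adjusted p = 0.850), with a 95% interval of 0.790-fold to 1.41-fold. For miR-199a-3p, means were 152 ± 42.8 and 135 ± 36.6 scaled CPM in Sub-fertile and Fertile vesicles, and the log2 fold change was 0.16 (SE 0.36, limma adjusted p = 0.846). Its interval of 0.638-fold to 1.97-fold leaves room for larger differences than that of miR-21-5p. Neither difference exceeded the spread between libraries. The sign of both was turned by leaving out 1 library, Fertile replicate 1 for miR-21-5p (-0.076) and Fertile replicate 2 for miR-199a-3p (-0.079).

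miR-143-3p averaged 27.5 ± 24.9 scaled CPM in Sub-fertile and 1.09 ± 0.995 in Fertile vesicles (SD, n = 3 each). Its log2 fold change was 3.56 (SE 1.04, unadjusted p = 0.00833, limma adjusted p = 0.0921). The p-values of miR-143-3p are descriptions, because the filter selected it by its Sub-fertile values; with no filter on low values, over 368 miRNAs, the limma adjusted p was 0.0705. DESeq2 gave miR-143-3p an adjusted p of 0.0226, where 6.84% of all tested miRNAs passed, and edgeR an adjusted p of 0.0626. Array weights in limma gave 0.0465, where 19.2% of all tested miRNAs passed, with the lowest weight, 0.188, on Sub-fertile replicate 1. Without Sub-fertile replicate 1 the limma log2 fold change was 2.89 (adjusted p = 0.139). The fitted change is no bound, since all Fertile libraries were below 3 counts, and it ran from 1.57 to 5.01 as the pseudocount went from 10 to 0.1.

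**Figure D3:**
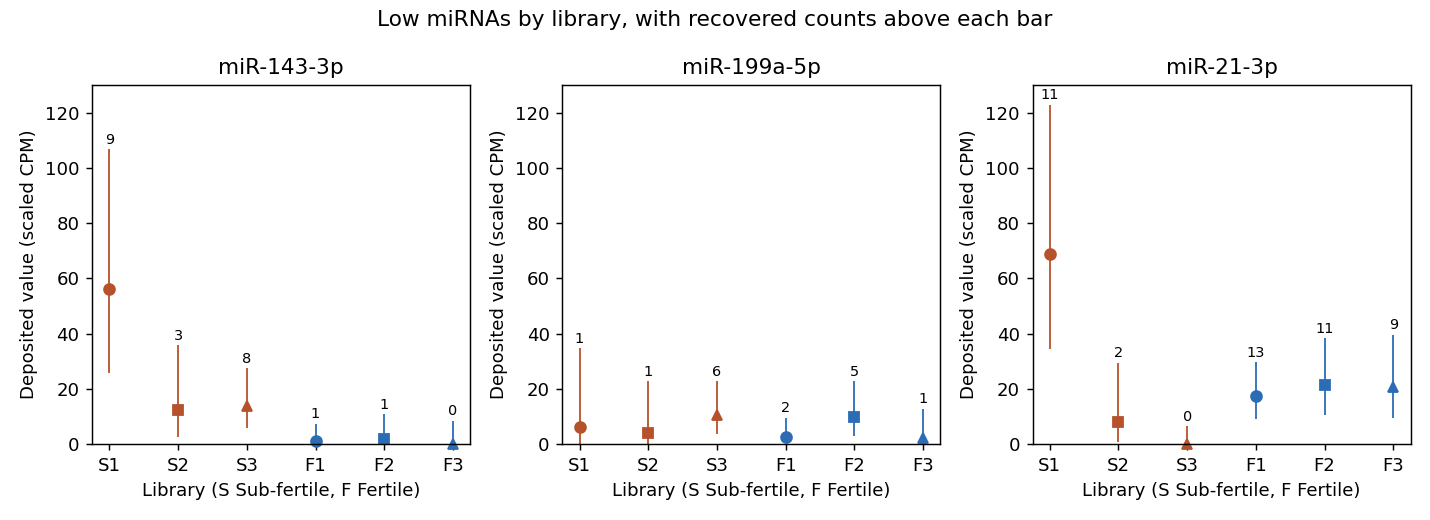
Deposited value in scaled CPM of miR-143-3p, miR-199a-5p and miR-21-3p in each library, with 95% exact Poisson intervals as bars and the recovered count above each. For miR-143-3p the Sub-fertile libraries (9, 3 and 8 counts) lie above the Fertile ones (1, 1 and 0 counts), but the intervals of Sub-fertile replicates 2 and 3 overlap those of the Fertile libraries.

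Marker lists of other cell types held 2 miRNAs that rose. They were the only 2 that rose among the 234 tested (0.855%), so that share is no separate background. The lists were chosen with earlier results of these data known, so both are described only. The striated muscle list had 6 miRNAs, of which 3 were tested and 1 rose, miR-206-3p, a skeletal muscle miRNA (log2 fold change 3.89, SE 0.49, limma adjusted p = 0.00617). Its level in Fertile replicates 1 to 3 was 9.33, 27.2 and 9.27 scaled CPM. miR-206-3p thus met the filter through its Sub-fertile libraries, and its p is a description. miR-1-3p (0.68) and miR-499-5p (0.44) did not pass. The summed level of the list was 206 to 278 scaled CPM in Sub-fertile and 13.9 to 76.0 in Fertile libraries. Of this, miR-206-3p alone was 175 to 252 in Sub-fertile and 9.27 to 27.2 in Fertile libraries. The sum thus does not describe the list as a whole, and miR-133a-3p, miR-133b-3p and miR-208a-3p were at 0. The leukocyte list had 6 miRNAs, all tested, and 1 rose, miR-146a-5p, which inflammatory signalling induces (2.15, SE 0.33, limma adjusted p = 0.0108). The others ranged in log2 fold change from -0.56 (miR-150-5p) to 1.56 (miR-223-3p). That list summed to 767 to 1118 scaled CPM in Sub-fertile and 311 to 695 in Fertile libraries. Of this, miR-146a-5p alone was 339 to 444 in Sub-fertile and 58.6 to 119 in Fertile libraries. For miR-142-3p (53.1 to 156 in Sub-fertile, 32.0 to 51.0 in Fertile, limma adjusted p = 0.237) the groups did not overlap either. That held with Sub-fertile higher for 9.40% of all tested miRNAs. They overlapped for miR-223-3p (95.7 to 298 in Sub-fertile, 5.33 to 364 in Fertile), and miR-150-5p was lower on average in Sub-fertile libraries. The leukocyte sum thus does not describe its list as a whole. Of the erythroid and platelet miRNAs 4 had a row, 1 was tested and 0 passed, with sums of 6.24 to 20.4 in Sub-fertile and 12.0 to 37.1 in Fertile libraries. Both arms of miR-144 were at 0, while miR-486-5p had 37 counts in all and miR-451-5p had 12. Of 5 endothelial miRNAs 3 had a row, and miR-126-3p and miR-126-5p were not analysed here. miR-139-5p and miR-424-5p were at 0, and miR-92a-3p, which many cell types share, had a log2 fold change of -0.48 (limma adjusted p = 0.260). The part of these markers, and of depth, in the difference of miR-143-3p was not tested.

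miR-21-3p, the strand of the miR-21 hairpin that is mostly discarded, was scarce. It had 11, 2 and 0 counts in Sub-fertile replicates 1 to 3, against 13, 11 and 9 in Fertile replicates 1 to 3. On the scaled level these are 68.7, 8.17 and 0 in Sub-fertile and 17.3, 21.4 and 20.9 in Fertile libraries, so Sub-fertile replicate 1 was above and the other Sub-fertile libraries below all Fertile ones. miR-21-5p outnumbered it 2150-fold in Sub-fertile (1257 to 4039) and 1376-fold in Fertile libraries (980 to 1999), on summed counts with counting intervals. By library the ratio was 451 in Sub-fertile replicate 1, below the 1278 to 1440 of the Fertile libraries, and 3344 in Sub-fertile replicate 2, with no value at 0 counts in replicate 3. Without Sub-fertile replicate 1 the summed Sub-fertile ratio was 11496 (3182 to 94932), on 2 counts of miR-21-3p, and without replicate 3 it was 896 (524 to 1683). The log2 fold change of miR-21-3p was -1.27 (SE 1.37, limma adjusted p = 0.654). Its sign was turned without Sub-fertile replicate 3 (0.28) and by DESeq2 (0.35). Without Sub-fertile replicate 1 it was -2.78 (limma adjusted p = 0.0666), and the ratio of Sub-fertile to Fertile from summed counts went to 0.125 (0.0146 to 0.490) against 0.682 (0.329 to 1.33) with all libraries.

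Several other miRNAs of fibroblasts, smooth muscle and vessel walls were more abundant than miR-143-3p and miR-199a-3p. Of 17 with a row, 14 were above 0, 13 were tested and 0 passed, with a median log2 fold change of -0.14 against -0.10 over all tested miRNAs. These 17 include the opposite strands miR-143-5p, miR-214-5p and miR-21-3p given above. miR-125b-5p, common in mesenchymal cells but also in epithelia, had the smallest p. Its groups did not overlap, which held with Sub-fertile lower for 16.2% of all tested miRNAs. It was 10377 ± 1028 scaled CPM in Sub-fertile and 14476 ± 1315 in Fertile vesicles (SD, n = 3 each), a log2 fold change of -0.48 (SE 0.16, limma adjusted p = 0.148). miR-100-5p had a log2 fold change of -0.57 (SE 0.30, limma adjusted p = 0.336). The imprinted miR-127-3p had 12.5, 192 and 1.74 scaled CPM in Sub-fertile replicates 1 to 3, against 2.67, 0 and 16.2 in Fertile replicates 1 to 3, so that 1 library carried its log2 fold change of 2.27 (SE 1.67, limma adjusted p = 0.510). miR-490-3p, a smooth muscle miRNA, was at 0, and miR-497-5p had 3 counts in all.

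Of the epithelial list, 7 of 7 measured miRNAs were tested and 0 passed, with a median log2 fold change of -0.13. The smallest p values belonged to miR-182-5p (log2 fold change -0.52), miR-375-3p (-0.77) and miR-183-5p (-0.40). Positive values were found for miR-96-5p (0.47), miR-141-3p (0.11) and miR-200c-3p (0.065). The limma adjusted p of the first 3 ran from 0.119 to 0.276. Epithelial miRNAs together reached 98344 to 154311 scaled CPM in Sub-fertile and 117706 to 124475 in Fertile libraries.

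The miRNAs whose profiles were most like those of the stromal ones were found from log2(value + 1) over the 6 libraries, centred on each miRNA's mean, by the root mean square difference. Closest to miR-21-5p were miR-93-5p (0.12) and miR-28-3p (0.14), where the median over 233 miRNAs was 0.53. Closest to miR-199a-3p were miR-29a-3p (0.24) and miR-204-5p (0.26), with a median of 0.64. For miR-143-3p they were miR-206-3p (0.92) and miR-34b-5p (0.94), with a median of 2.09. Both the differences and the median were larger for miR-143-3p, so closeness cannot be compared between the pairs. miR-143-3p also rested on few counts. Both it and miR-206-3p met the filter through their Sub-fertile libraries, so the likeness of their profiles was partly selected.

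**Figure D4:**
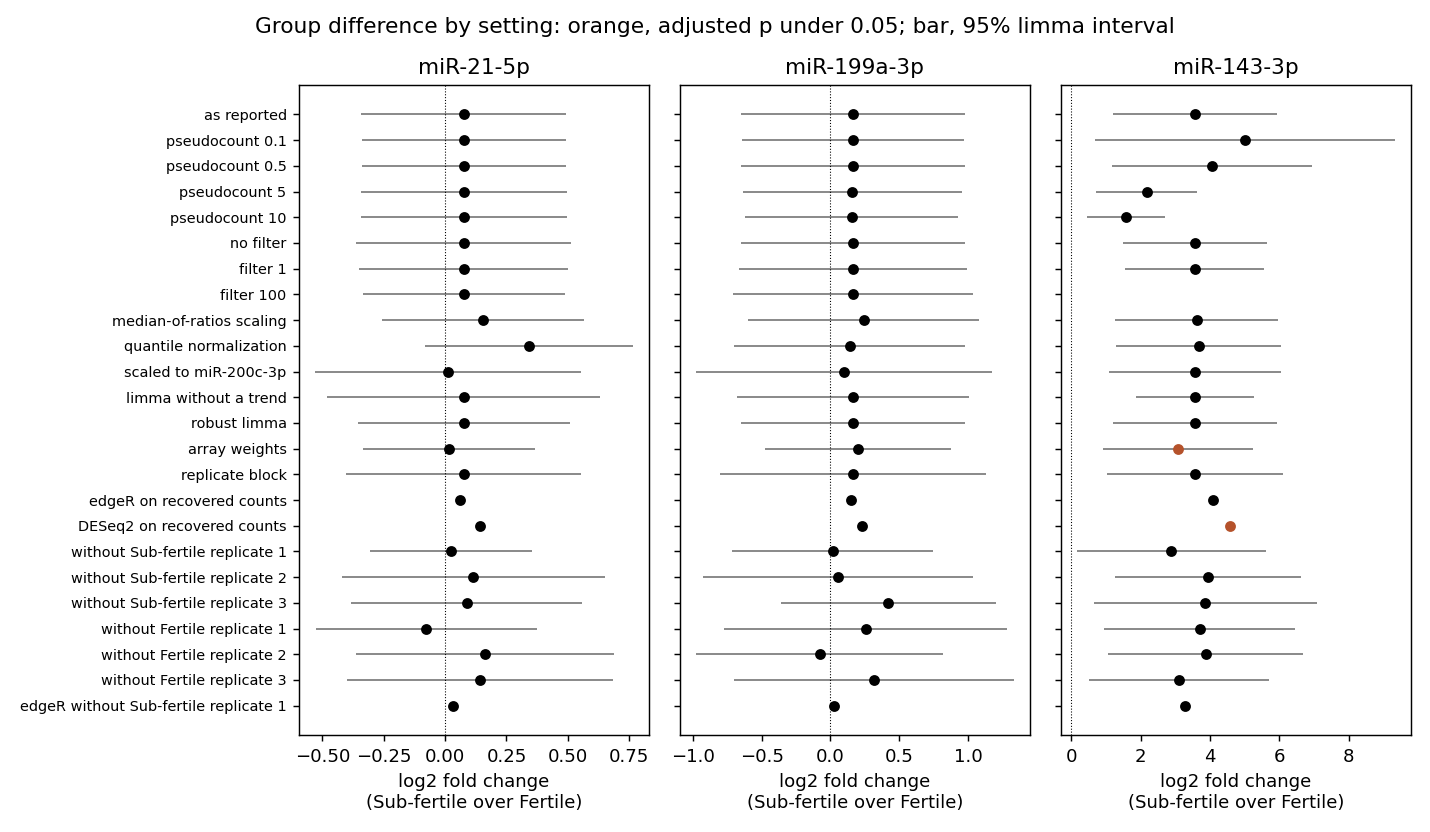
Log2 fold change (Sub-fertile over Fertile) of miR-21-5p, miR-199a-3p and miR-143-3p with the reported test, at the top, and under each alternative. Points are estimates, bars 95% limma intervals where limma was used, and orange marks an adjusted p under 0.05. miR-143-3p lies between 1.57 and 5.01 and passes with array weights and DESeq2 alone, while miR-21-5p lies between -0.076 and 0.34 and miR-199a-3p between -0.079 and 0.42, neither passing.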

How the data were processed

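Per the labels' protocols, vesicles from 2.5 mL of seminal plasma per biological replicate (3 per group) were isolated by ultracentrifugation and size exclusion, and libraries were made with a QIAseq kit. The tools DESeq2, Bowtie2 2.2.2 and bcl2fastq and the genome build OryCun2.0 are named, without their role, per the submitters' processing notes. The deposited table holds 1 scaled signal per miRNA and library, which the authors named CPM. All values (100%) were whole multiples of the library's smallest value above 0 (tolerance 1e-06), so counts were recovered. Whether these count reads or unique molecular identifiers was not given in those notes or labels. No labels name batches or say whether ejaculates were pooled.

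The deposited values were tested with limma 3.58.1 (R 4.3.3; mean-variance trend, two-sided, Benjamini-Hochberg, threshold 0.05) on log2(value + 1), a scale that understates changes of low miRNAs. Alternatives were pseudocounts, filters, scalings, limma settings, a replicate block, leaving out libraries, and edgeR 4.0.16 (8 miRNAs called in all, as by limma) and DESeq2 1.42.0 on recovered counts. Alternatives kept the 234 miRNAs of the reported filter except where the filter changed. Ratios were compared by exact permutation. Library pairs of 1 group differed beyond counting noise (lowest chi-square per degree of freedom 20.3). Scripts were tested on simulated data. The miRNAs, lists and naming rule (all stromal miRNAs, opposite arms, up to 3 per list by p, 2 nearest profiles) were chosen with earlier results of these data known.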

Additional observations from a re-analysis of the deposited data

How the results depend on the processing

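The number of stromal miRNAs past the threshold was 0 as reported and 1 with array weights or DESeq2. It was 0 under the other alternatives, with the replicate block included (0 stromal miRNAs; 0 of 234 in all, limma). Leaving out 1 library gave 0 throughout. The log2 fold change of miR-143-3p kept its sign, with adjusted p from 0.0226 to 0.302; a filter at 100 left it untested. With 1 library left out, that of miR-21-5p ran from -0.076 (without Fertile replicate 1) to 0.16 and that of miR-199a-3p from -0.079 (without Fertile replicate 2) to 0.42; quantile normalization gave miR-21-5p 0.34 (adjusted p = 0.353). Leaving out single libraries moved the log2 ratio to miR-200c-3p from -0.17 to 0.19 for miR-21-5p and from -0.19 to 0.53 for miR-199a-3p, and the log2 difference of the summed share from -0.17 to 0.19. The cause was not tested.

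Over all miRNAs, 8 passed as reported, 14 with a filter at 100 (131 tested), 5 with quantile normalization, 1 without a trend, 45 with array weights, 16 with DESeq2, and 3 to 39 with 1 library left out. Deviations from the group means correlated at 0.045, -0.12 and 0.10 for the 3 pairs of equal number. Sub-fertile replicate 3 and Fertile replicate 1 correlated best with their own number, and the other libraries did not. No label says that equal numbers pair libraries, and 3 pairs are too few to decide it. edgeR without Sub-fertile replicate 1, chosen after seeing the data, gave miR-143-3p an adjusted p of 0.0701. Arm ratios had too few counts for their alternatives. Depth limits miR-143-3p (22 counts), miR-199a-5p (16) and those at 0.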
